A study of Gallus gallus with 9 samples.

Results

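The 6 knockout libraries of a study of chicken (Gallus gallus) primordial germ cells (PGCs) were set against its 3 control libraries, to find the genes that stood on the same side of control in both knockouts. All 9 libraries of the series entered the comparison: 3 labelled Lin28A knockout, 3 labelled Lin28B knockout and 3 from wild-type PGCs with a control vector. Each knockout label had a weight of 0.5, so that the pooled log2 fold change is the mean of the difference of each label from control. The labels give no method of disruption, no clone and no age or sex, and are silent on whether replicates were separate cultures. The p-values therefore measure the spread between these libraries only, which may be technical.

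PGCs are the embryonic founders of eggs and sperm. LIN28A and LIN28B are RNA-binding proteins that bind precursors of the let-7 microRNAs and block their maturation, and let-7 lowers the output of messenger RNAs such as those of growth and cell cycle genes. LIN28 proteins also bind messenger RNAs directly, and in mouse LIN28 is needed for normal PGC formation.

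Poly(A) RNA was counted at 27.7 to 32.2 M reads per library over 24356 listed genes, and 15475 genes with enough counts were tested. Levels are given in CPM, counts scaled to library size with TMM factors, and a floor of 3 counts per library stood for 0.0931 to 0.108 CPM, for counting error only. Within each group replicates 1 and 2 were alike and replicate 3 was distant: over 10151 genes the root mean square log2 difference was 0.137 to 0.164 between replicates 1 and 2, and 0.713 to 0.725 between them and LIN28A knockout replicate 3. The same distance of replicate 3 was 0.398 to 0.443 under the LIN28B knockout label and 0.365 to 0.384 in control. The summed level of the 9 tested PGC markers, of 12 listed, ran from 3592 to 4040 CPM in the LIN28A knockout libraries, 4331 to 4540 CPM in those labelled LIN28B knockout and 4373 to 4501 CPM in control. DAZL had the highest level of these markers in every library, with means of 1414, 1650 and 1937 CPM in the same order. DDX4, CDH1 and PRDM1 had higher means in LIN28A knockout than in control, and the other tested markers lower means.

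The targeted genes were read first. LIN28A (ENSGALG00000036022) was at 117, 109 and 17.7 CPM under the LIN28A knockout label, 173, 179 and 242 CPM under the LIN28B knockout label and 160.4, 144 and 244 CPM in control. The lowest value was that of LIN28A knockout replicate 3, and the other LIN28A knockout libraries lay below the control libraries as well, while those labelled LIN28B knockout overlapped control. LIN28B (ENSGALG00000026761) was at 40.3, 41.7 and 38.0 CPM in the LIN28A knockout libraries, 55.0, 59.6 and 50.3 CPM in those labelled LIN28B knockout and 52.3, 45.3 and 61.9 CPM in control. All 3 LIN28A knockout libraries were below the control libraries for LIN28B, and the libraries labelled LIN28B knockout were not lower than control. Transcript levels do not test whether either gene was disrupted, so both knockout names stand for the labels throughout. Under its own label the log2 fold change was −1.17 ± 0.53 for LIN28A and 0.05 ± 0.14 for LIN28B (edgeR adjusted p = 0.479 and 0.929). The pooled log2 fold change was −0.52 ± 0.45 (SE) for LIN28A and −0.18 ± 0.12 for LIN28B, and neither passed (edgeR adjusted p = 0.885 and 0.813).

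**Figure D1:**
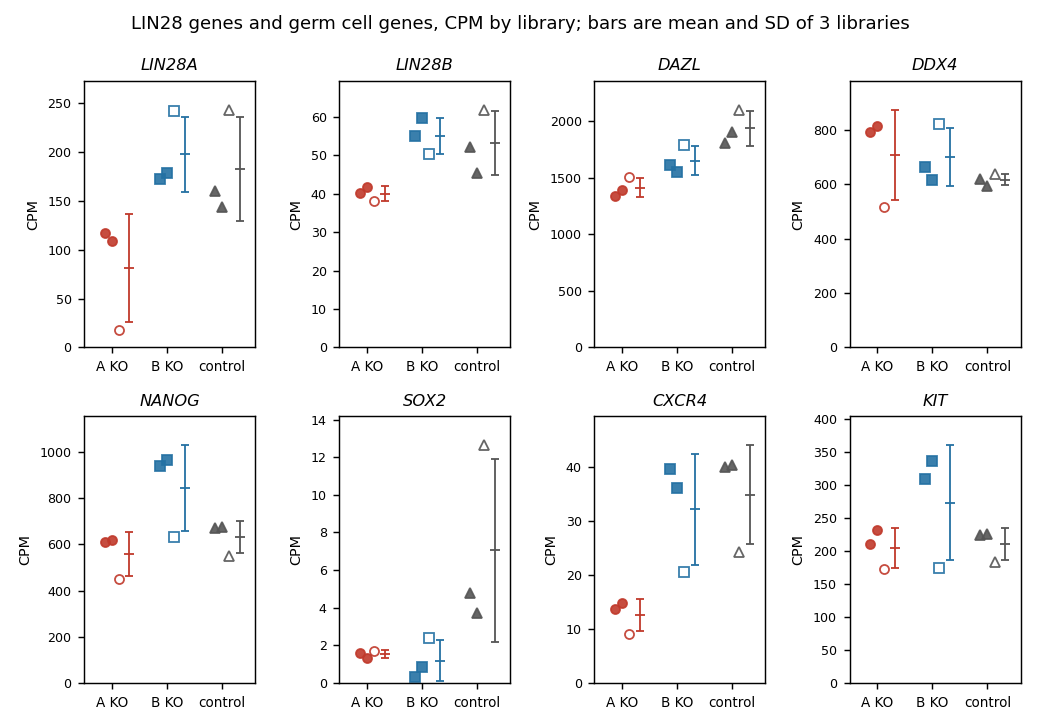
Level of LIN28A, LIN28B and 6 germ cell or pluripotency genes in CPM (vertical axes, linear from 0) in each library, with A KO and B KO for the libraries labelled LIN28A and LIN28B knockout. Open symbols are replicate 3 and bars are the mean and SD of 3 libraries. LIN28A is lowest in LIN28A knockout replicate 3 at 17.7 CPM, and DAZL and SOX2 are lower in all 6 knockout libraries than in any control library.

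Over all genes, edgeR's quasi-likelihood test called 0 of 15475 genes in the pooled comparison (0% higher and 0% lower; smallest Benjamini-Hochberg adjusted p = 0.119), against 1118 genes (7.22%) at an unadjusted p under 0.05, 536 higher (3.46%) and 582 lower (3.76%). DESeq2 on the same genes called 101 (0.653%), of which 57 were higher (0.368%) and 44 lower (0.284%). With the replicate number as a block DESeq2 called 304 (1.96%), 161 higher (1.04%) and 143 lower (0.924%), 94 of the 101 among them, while edgeR called 0 with the block as well. For each label alone against control, edgeR called 1 of 15475 genes in LIN28A knockout and 2 under the LIN28B knockout label. Of the 101 genes, 96 had the same sign under both knockout labels, and 81 had no overlap between the 6 knockout libraries and the 3 control libraries. A call on the mean of both differences favours a shared sign and a lack of overlap, so these 2 counts follow in part from the choice. Among all tested genes 616 (3.98%) had no such overlap, 273 with every knockout library above control (1.76%) and 343 with every one below (2.22%). Their median log2 fold changes were 0.45 and −0.31, and 36 of the higher and 42 of the lower genes differed by at least 1 on the log2 scale. The sign was shared by 8395 of 15475 genes (54.2%), a count that rests in part on control libraries common to both differences.

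The count of calls turned on LIN28A knockout replicate 3. Without that library edgeR called 233 of 15815 genes (1.47%), 139 higher (0.879%) and 94 lower (0.594%), and 195 of them had the same sign in both labels with no overlap. The call on the mean of both labels favours such genes here too. Leaving out any of the other 8 libraries gave 0 calls. The 233 and the 101 genes of DESeq2 had 53 in common. With replicates 1 and 2 only, edgeR called 4263 of 15696 genes (27.2%). Replicates 1 and 2 were alike and may not be separate cultures, so the p-values of this fit measure only the small spread between them. The 616 genes without overlap became 1855 without LIN28A knockout replicate 3, 1155 without LIN28B knockout replicate 3, and 1498, 972 and 971 without control replicate 3, 1 and 2, a condition that is easier to meet with fewer libraries.

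The genes described first are the 12 higher and 12 lower genes with a symbol and the lowest unadjusted p, out of 207 and 268 that had no overlap, the same sign in both labels and an average log2 CPM of at least 1. Their lack of overlap and their low p were conditions of the choice and are described, not tested. None of the 24 passed edgeR on all 9 libraries (adjusted p = 0.119 to 0.396). DESeq2 called all 24, beside 0.653% of all genes. Without LIN28A knockout replicate 3 edgeR called the 12 higher genes and 11 of the 12 lower, beside 0.879% and 0.594% of all genes. The exception was DLGAP2 (edgeR adjusted p = 0.0623). These fits reuse the counts from which the 24 were chosen, so their calls follow in part from the choice and are no separate test.

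**Figure D2:**
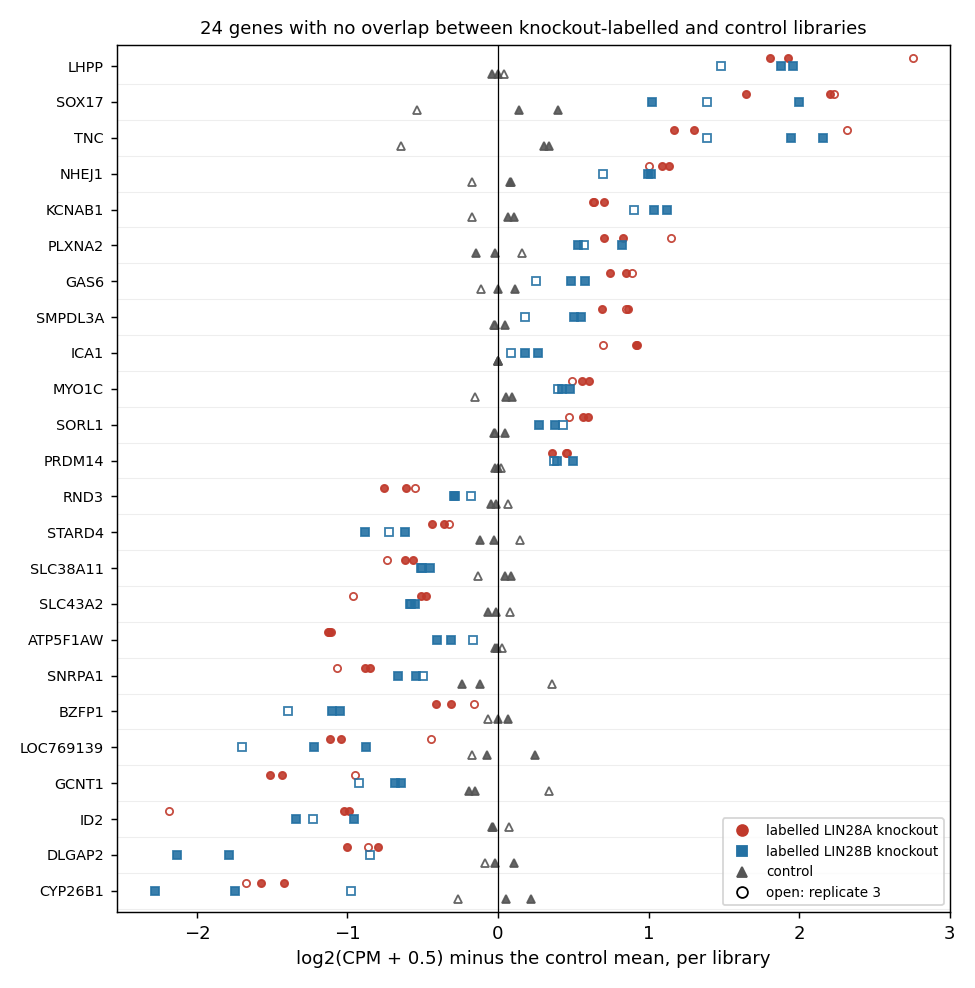
Difference of each library from the control mean on the scale log2(CPM + 0.5) (horizontal axis) for the 24 genes, ordered by pooled log2 fold change within each direction. Circles are libraries labelled LIN28A knockout, squares those labelled LIN28B knockout, triangles control, and open symbols replicate 3. The genes were chosen for having no overlap, and the distance from control runs from the 2.38 of LHPP to the −1.65 of CYP26B1 in the fitted pooled values.

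Among the higher genes, LHPP, SOX17 and TNC differed most. LHPP (ENSGALG00000030925), a phosphatase that acts on phosphohistidine, was at 6.18, 5.67 and 11.4 CPM under the LIN28A knockout label, 5.97, 6.34 and 4.41 CPM under the LIN28B knockout label and 1.22, 1.26 and 1.31 CPM in control. The control libraries lay within a narrow range and the highest value was LIN28A knockout replicate 3. Its pooled log2 fold change was 2.38 ± 0.30 (SE; edgeR adjusted p = 0.119, DESeq2 adjusted p = 8.86e-11). SOX17 (ENSGALG00000032994), an HMG-box factor of endoderm that in human also acts in PGC specification, was at 4.85, 3.14 and 4.96 CPM in the LIN28A knockout libraries, 4.15, 1.86 and 2.54 CPM in those labelled LIN28B knockout and 0.779, 1.03 and 0.299 CPM in control. Its level was low in every library, and the lowest knockout library, replicate 2 under the LIN28B knockout label, stood above the highest control library. The pooled log2 fold change of SOX17 was 2.30 ± 0.45 (edgeR adjusted p = 0.298, DESeq2 adjusted p = 1.27e-04).

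TNC (ENSGALG00000039990), the matrix glycoprotein tenascin-C, was at 28.3, 25.8 and 57.9 CPM under the LIN28A knockout label, 44.5, 51.7 and 30.1 CPM under the LIN28B knockout label and 14.0, 14.3 and 6.98 CPM in control. Replicate 3 was the highest of its group under the LIN28A knockout label and the lowest of its group under the LIN28B knockout label and in control. The pooled log2 fold change of TNC was 1.75 ± 0.34 (edgeR adjusted p = 0.298, DESeq2 adjusted p = 1.03e-04). NHEJ1 (ENSGALG00000011335), a factor of DNA end joining, was at 6.51, 6.73 and 6.10 CPM in the LIN28A knockout libraries, 6.07, 6.16 and 4.85 CPM in those labelled LIN28B knockout and 2.99, 3.01 and 2.43 CPM in control. The control libraries again lay lowest, and the pooled log2 fold change was 1.11 ± 0.20 (edgeR adjusted p = 0.285). KCNAB1 (ENSGALG00000010269), a subunit of voltage-gated potassium channels, was at 17.4, 18.3 and 17.5 CPM under the LIN28A knockout label, 23.2, 24.7 and 21.2 CPM under the LIN28B knockout label and 11.6, 11.96 and 9.78 CPM in control. Here the libraries labelled LIN28B knockout were the highest, at a pooled log2 fold change of 0.86 ± 0.13 (edgeR adjusted p = 0.269).

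PRDM14 (ENSGALG00000033439), a PR-domain factor needed for PGC formation in mouse, was the higher gene with the closest values in both knockouts. It was at 162, 151 and 161 CPM in the LIN28A knockout libraries, 166, 155 and 153 CPM in those labelled LIN28B knockout and 116, 118 and 119 CPM in control. All 6 knockout libraries lay between 151 and 166 CPM and all control libraries between 116 and 119 CPM. Its log2 fold change was 0.42 ± 0.09 in LIN28A knockout and 0.42 ± 0.09 under the LIN28B knockout label, and 0.42 ± 0.08 in the pooled comparison (edgeR adjusted p = 0.285, DESeq2 adjusted p = 2.37e-05).

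PLXNA2, a receptor of semaphorins, was at 16.6, 18.2 and 22.8 CPM under the LIN28A knockout label, 18.1, 14.7 and 15.1 CPM under the LIN28B knockout label and 9.004, 9.89 and 11.3 CPM in control. GAS6, a ligand of the TAM receptor kinases, was at 32.1, 34.6 and 35.6 CPM in the LIN28A knockout libraries, 28.6, 26.7 and 22.7 CPM in those labelled LIN28B knockout and 20.5, 18.9 and 17.5 CPM in control. In both genes every knockout library was above control, with lower means under the LIN28B knockout label than in LIN28A knockout, and the pooled log2 fold changes were 0.80 ± 0.16 and 0.65 ± 0.12. SMPDL3A, a phosphodiesterase related to acid sphingomyelinase, was at 63.1, 71.2 and 70.5 CPM under the LIN28A knockout label, 57.4, 55.4 and 44.1 CPM under the LIN28B knockout label and 38.4, 40.2 and 38.3 CPM in control. SORL1, a sorting receptor of the endosome, was at 121, 119 and 111 CPM in the LIN28A knockout libraries, 97.0, 104 and 108 CPM in those labelled LIN28B knockout and 82.9, 78.6 and 79.0 CPM in control. The knockout library nearest to control was replicate 3 of the LIN28B knockout label for SMPDL3A and replicate 1 of that label for SORL1, and the pooled log2 fold changes were 0.62 ± 0.11 and 0.46 ± 0.08. MYO1C, an unconventional myosin, was at 81.8, 84.5 and 78.1 CPM under the LIN28A knockout label, 77.5, 74.5 and 73.0 CPM under the LIN28B knockout label and 57.5, 59.2 and 49.9 CPM in control. Its 6 knockout libraries were at 73.0 CPM or more, at a pooled log2 fold change of 0.49 ± 0.09.

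**Figure D3:**
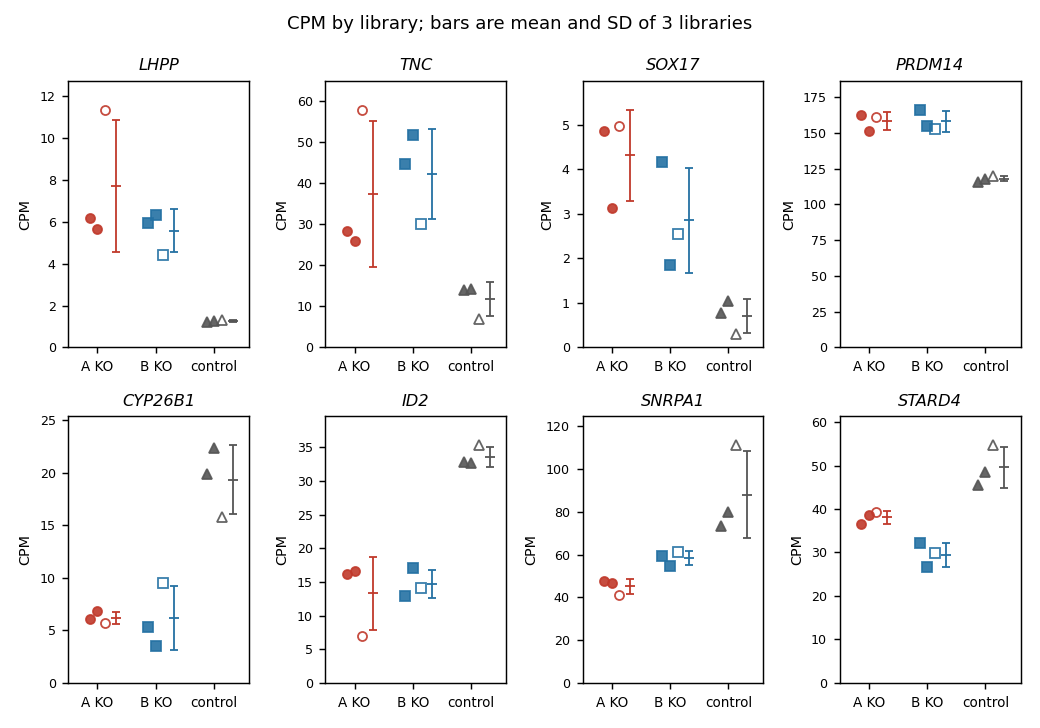
Level in CPM (vertical axes, linear from 0) of 4 genes higher and 4 genes lower in all 6 knockout libraries, by library, with A KO and B KO for the libraries labelled LIN28A and LIN28B knockout. Open symbols are replicate 3 and bars are the mean and SD of 3 libraries. PRDM14 has 151 CPM or more in the knockout libraries and 119 CPM or less in control, and SNRPA1 shows a control replicate 3 that is far above the other control libraries.

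Among the lower genes, CYP26B1 differed most. CYP26B1 (ENSGALG00000016102), an enzyme that breaks down retinoic acid and in the mouse fetal testis keeps germ cells from entering meiosis, was at 6.12, 6.83 and 5.65 CPM in the LIN28A knockout libraries, 5.35, 3.54 and 9.49 CPM in those labelled LIN28B knockout and 19.9, 22.3 and 15.8 CPM in control. Replicate 3 under the LIN28B knockout label was the knockout library nearest to control, and control replicate 3 the control library nearest to the knockouts. The pooled log2 fold change was −1.65 ± 0.26 (SE; edgeR adjusted p = 0.269, DESeq2 adjusted p = 2.83e-05). ID2 (ENSGALG00000035016), an inhibitor of basic helix-loop-helix factors and a target of BMP signalling, was at 16.2, 16.6 and 6.99 CPM under the LIN28A knockout label, 12.9, 17.1 and 14.1 CPM under the LIN28B knockout label and 32.8, 32.7 and 35.3 CPM in control. The lowest value was LIN28A knockout replicate 3 and the control libraries were close to each other, at a pooled log2 fold change of −1.27 ± 0.24 (edgeR adjusted p = 0.285, DESeq2 adjusted p = 7.34e-04). The list of activin, nodal and BMP signalling that holds ID2 had 20 of 40 tested members above control and a median log2 fold change of −0.01.

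SNRPA1 (ENSGALG00000007170), a protein of the U2 spliceosomal particle, was at 47.8, 46.7 and 41.1 CPM in the LIN28A knockout libraries, 59.4, 54.6 and 61.3 CPM in those labelled LIN28B knockout and 73.2, 79.8 and 111 CPM in control. The knockout libraries lay lower under both labels, and control replicate 3 was the highest library. Its pooled log2 fold change was −0.78 ± 0.13 (edgeR adjusted p = 0.285) and ranged from −0.90 to −0.57 when single libraries were left out. RND3 was at 122, 135 and 141 CPM under the LIN28A knockout label, 169, 168 and 182 CPM under the LIN28B knockout label and 199, 204 and 216 CPM in control. The LIN28A knockout libraries were lower than those labelled LIN28B knockout, which were lower than control, and the pooled log2 fold change was −0.45 ± 0.08 (edgeR adjusted p = 0.285). GCNT1, an enzyme that branches O-linked sugar chains, was at 3.28, 3.50 and 5.10 CPM in the LIN28A knockout libraries, 6.42, 6.23 and 5.21 CPM in those labelled LIN28B knockout and 8.97, 9.24 and 13.2 CPM in control. Control replicate 3 stood above the other control libraries, and the pooled log2 fold change was −1.11 ± 0.21 (edgeR adjusted p = 0.298).

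Transporters and a sterol carrier were among the lower genes. SLC38A11, an amino acid transporter family member, was at 21.99, 22.8 and 20.2 CPM under the LIN28A knockout label, 24.7, 23.7 and 23.8 CPM under the LIN28B knockout label and 35.1, 36.1 and 30.9 CPM in control. SLC43A2, a transporter of large neutral amino acids, was at 22.6, 22.001 and 15.9 CPM in the LIN28A knockout libraries, 21.4, 20.9 and 21.0 CPM in those labelled LIN28B knockout and 30.1, 31.3 and 33.4 CPM in control. Means were close under both labels and lower than control, at pooled log2 fold changes of −0.58 ± 0.11 and −0.61 ± 0.13 (edgeR adjusted p = 0.285 and 0.396). STARD4 (ENSGALG00000000241), which carries sterols between membranes, was at 36.5, 38.5 and 39.4 CPM under the LIN28A knockout label, 32.1, 26.6 and 29.8 CPM under the LIN28B knockout label and 45.6, 48.5 and 54.7 CPM in control. The libraries labelled LIN28B knockout were the lowest, and the pooled log2 fold change was −0.56 ± 0.11 (edgeR adjusted p = 0.285).

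DLGAP2, a scaffold protein of synapses, was at 6.81, 5.85 and 6.48 CPM in the LIN28A knockout libraries, 2.40, 3.19 and 6.55 CPM in those labelled LIN28B knockout and 12.03, 13.2 and 11.5 CPM in control. Replicates 1 and 2 of the LIN28B knockout label held the lowest values, and the pooled log2 fold change was −1.27 ± 0.27 (edgeR adjusted p = 0.396). BZFP1 was at 7.35, 6.83 and 8.23 CPM under the LIN28A knockout label, 4.06, 4.22 and 3.21 CPM under the LIN28B knockout label and 9.72, 9.28 and 8.81 CPM in control. The LIN28B knockout label held the lowest values (difference 0.96 ± 0.20, edgeR adjusted p = 0.0707, and 0.0384 with the replicate block). LIN28A knockout replicate 3 lay just below the lowest control library. LOC769139 was at 15.2, 14.4 and 23.2 CPM in the LIN28A knockout libraries, 17.1, 13.4 and 9.42 CPM in those labelled LIN28B knockout and 30.2, 37.8 and 28.1 CPM in control. All 6 knockout libraries lay below control for both of these genes, at pooled log2 fold changes of −0.79 ± 0.17 and −1.07 ± 0.21 (edgeR adjusted p = 0.396 and 0.347).

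**Figure D4:**
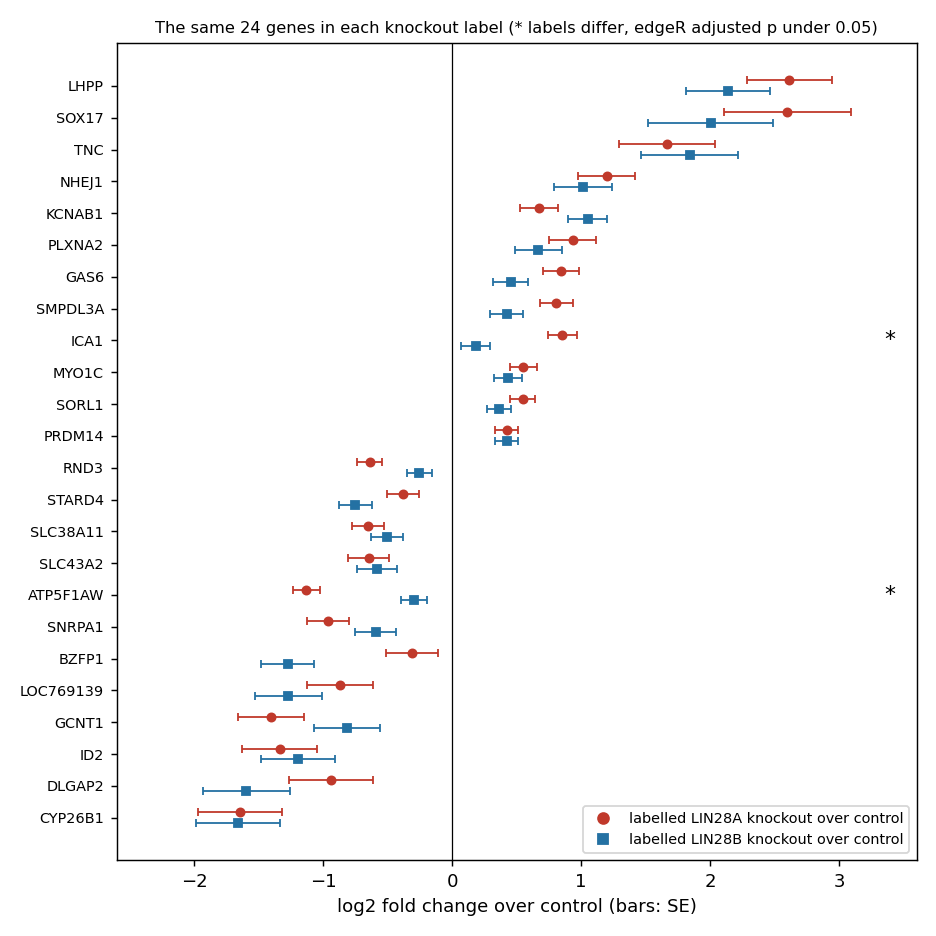
Log2 fold change over control (horizontal axis) of the same 24 genes under each knockout label, from the fit of all 9 libraries, with bars for SE. Circles are the LIN28A knockout label and squares the LIN28B knockout label, which share the control libraries. Asterisks mark ICA1 and ATP5F1AW, whose log2 fold changes differ between the labels by 0.67 ± 0.11 and −0.84 ± 0.10 (LIN28A minus LIN28B).

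The difference between the labels was tested within the same fit, where the control libraries cancel. Of all genes, 80 differed between LIN28A knockout and the LIN28B knockout label (edgeR; 0.517%), 58 higher in LIN28A knockout and 22 lower. Every single library moved this count. It was 0 without replicate 1 or replicate 2 of the LIN28B knockout label, 5, 4 and 474 without LIN28A knockout replicate 1, 2 and 3, 230 without LIN28B knockout replicate 3, and 9, 17 and 44 without control replicate 1, 2 and 3, so no difference between the labels given here passed in every such fit. Of the 24 genes described, 2 differed between the labels in the fit of all 9 libraries. ICA1, a vesicle protein, was at 81.5, 81.7 and 69.9 CPM under the LIN28A knockout label, 48.8, 51.8 and 45.6 CPM under the LIN28B knockout label and 42.9, 43.0 and 43.0 CPM in control. Its log2 fold change over control was 0.85 ± 0.11 in LIN28A knockout and 0.18 ± 0.11 under the LIN28B knockout label, a difference of 0.67 ± 0.11 (edgeR adjusted p = 0.0399). ATP5F1AW (ENSGALG00000043758), the W-linked gene of the ATP synthase alpha subunit, was at 40.0, 40.5 and 40.1 CPM in the LIN28A knockout libraries, 66.2, 70.7 and 78.3 CPM in those labelled LIN28B knockout and 87.6, 86.7 and 89.6 CPM in control. The LIN28A knockout libraries were lowest and the libraries labelled LIN28B knockout lay between them and control, with log2 fold changes of −1.13 ± 0.10 and −0.29 ± 0.10 and a difference of −0.84 ± 0.10 (edgeR adjusted p = 0.0152). Reads of ATP5F1AW and of its Z-linked copy, which is nearly identical, may have been mixed. For the other 22 genes a difference between the labels did not pass, which does not show that the labels acted alike. With the replicate block, a setting chosen after seeing the data, RND3 and BZFP1 passed as well (edgeR adjusted p = 0.0332 and 0.0384).

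Of the 101 genes that DESeq2 called in the pooled comparison 8 differed between the labels, ICA1 and ATP5F1AW among them. PFKFB3, an enzyme that drives glycolysis, was at 51.6, 51.7 and 56.1 CPM under the LIN28A knockout label, 23.8, 22.2 and 23.5 CPM under the LIN28B knockout label and 47.9, 52.5 and 46.5 CPM in control. It was lower only under the LIN28B knockout label, with a log2 fold change of −1.08 ± 0.11, against 0.12 ± 0.11 in LIN28A knockout (difference 1.20 ± 0.11, edgeR adjusted p = 0.00706). SLIT1, a secreted guidance molecule, is named here after its values were seen. SLIT1 had a log2 fold change of −1.41 ± 0.19 in LIN28A knockout and 0.11 ± 0.18 under the LIN28B knockout label (difference −1.52 ± 0.19, edgeR adjusted p = 0.0152). CDKN1A, an inhibitor of the cell cycle, was not called by either tool in the pooled comparison and was at 11.8, 10.6 and 11.0 CPM in the LIN28A knockout libraries, 2.24, 1.54 and 1.87 CPM in those labelled LIN28B knockout and 2.18, 1.58 and 4.48 CPM in control. It was higher in all LIN28A knockout libraries than in any other library, and its log2 fold change differed between the labels by 2.56 ± 0.38 (edgeR adjusted p = 0.0286).

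Other genes that DESeq2 called with no overlap are also named after their values were seen. They were picked from the 81 such genes and were not tested as groups. NFKB1 and NFKB2, which encode subunits of the NF-kappa B factor, had pooled log2 fold changes of 0.38 ± 0.10 and 0.80 ± 0.16 (edgeR adjusted p = 0.507 and 0.352; DESeq2 adjusted p = 0.0265 and 0.00232). NOBOX, an oocyte homeobox factor, and H1FOO, an oocyte linker histone, were at 1.43 ± 0.38 and 0.68 ± 0.18 (edgeR adjusted p = 0.507 for both, DESeq2 adjusted p = 0.0475 and 0.0218). NOBOX was low in every library, and its nearest libraries were LIN28A knockout replicate 3 at 1.34 CPM and control replicate 2 at 1.00 CPM. SNRPD1, a core protein of spliceosomal particles, was lower at −0.29 ± 0.08 (edgeR adjusted p = 0.507, DESeq2 adjusted p = 0.0481). So was CALR, a chaperone of the endoplasmic reticulum, at −0.32 ± 0.07 (edgeR adjusted p = 0.462, DESeq2 adjusted p = 0.00627). ZEB2, a repressor known from epithelial to mesenchymal transition, was at −1.23 ± 0.32 (edgeR adjusted p = 0.507, DESeq2 adjusted p = 0.0465). Its levels were 8.23, 7.62 and 14.9 CPM under the LIN28A knockout label and 11.1, 11.9 and 14.0 CPM under the LIN28B knockout label. In control ZEB2 was at 18.1, 17.3 and 43.8 CPM, with replicate 3 far above every other library.

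Genes of germ cell identity stood on both sides of control. Of 25 listed genes 17 were tested, 12 above and 5 below control. Their median log2 fold change was 0.16, against 0.01 over all tested genes, of which 51.3% were above. Without control replicate 3 the list median was 0.082. PRDM14 was the 1 member above control in all 6 knockout libraries (1 of 17, beside 1.76% of all genes) and DAZL the 1 below in all 6 (1 of 17, beside 2.22%). DAZL (ENSGALG00000011243), an RNA-binding regulator of translation in germ cells, was at 1341, 1393 and 1506 CPM under the LIN28A knockout label, 1612, 1547 and 1791 CPM under the LIN28B knockout label and 1804, 1903 and 2102 CPM in control. The libraries labelled LIN28B knockout lay between those of LIN28A knockout and control, and the highest of them, replicate 3, came close to the lowest control library. The pooled log2 fold change of DAZL was −0.34 ± 0.09 (edgeR adjusted p = 0.507, and 0.0484 without LIN28A knockout replicate 3; DESeq2 adjusted p = 0.0740, and 0.00102 with the replicate block). The germ cell RNA helicase DDX4 was at 791, 815 and 516 CPM in the LIN28A knockout libraries, 662, 615 and 820.3 CPM in those labelled LIN28B knockout and 617, 595 and 637 CPM in control. Its groups overlapped, since LIN28A knockout replicate 3 was the lowest library while replicates 1 and 2 were above control, and its pooled log2 fold change was 0.19 ± 0.15 (edgeR adjusted p = 0.869).

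CXCR4, the receptor that guides migrating PGCs, was at 13.6, 14.7 and 9.16 CPM under the LIN28A knockout label, 39.8, 36.3 and 20.5 CPM under the LIN28B knockout label and 40.0, 40.5 and 24.3 CPM in control. It was lower than control in the LIN28A knockout libraries and overlapped control under the LIN28B knockout label, with log2 fold changes of −1.48 ± 0.30 and −0.12 ± 0.29. The difference was −1.36 ± 0.30 (edgeR adjusted p = 0.0747, and 0.00450 with the replicate block). In the pooled comparison its DESeq2 adjusted p was 0.149, and 4.85e-08 with the replicate block. KIT, a receptor kinase of germ cell survival, NANOG, PIWIL1, PRDM1, MYC and SALL4 had knockout libraries within the control range or on both sides of it, with pooled log2 fold changes of 0.16 ± 0.20, 0.12 ± 0.16, 0.02 ± 0.12, 0.30 ± 0.22, 0.44 ± 0.33 and −0.06 ± 0.18, and none passed (edgeR adjusted p = 0.860 to 0.996). NANOG was at 608, 617 and 449 CPM in the LIN28A knockout libraries, 938, 966 and 632 CPM in those labelled LIN28B knockout and 672, 673 and 551 CPM in control. Replicate 3 was the lowest of each group for NANOG, and replicates 1 and 2 of the LIN28B knockout label were the highest libraries. Between the labels NANOG and PIWIL1 did not pass (edgeR adjusted p = 0.152 and 0.158), and passed with the replicate block (edgeR adjusted p = 0.0178 and 0.0244). SOX2 (ENSGALG00000043460), a factor of pluripotent and neural cells, was at 1.60, 1.31 and 1.69 CPM under the LIN28A knockout label, 0.324, 0.823 and 2.41 CPM under the LIN28B knockout label and 4.77, 3.72 and 12.7 CPM in control. All 6 knockout libraries were below all control libraries, control replicate 3 was far above the rest, and the pooled log2 fold change was −2.38 ± 0.54 (edgeR adjusted p = 0.448, DESeq2 adjusted p = 0.00840).

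Of 16 tested pluripotency factors 4 had no overlap, PRDM14 and TFCP2L1 above control and SOX2 and SOX3 below (25% beside 3.98% of all genes). PRDM14 was also counted in the germ cell identity list, and SOX2 and SOX3 count again in the neural and ectoderm list. The shares of these lists are therefore not separate results. TFCP2L1, a factor of naive pluripotency in mouse, was at 6.03, 6.19 and 8.13 CPM in the LIN28A knockout libraries, 6.23, 5.23 and 7.22 CPM in those labelled LIN28B knockout and 5.05, 4.62 and 4.22 CPM in control. SOX3, a neural and early ectoderm factor related to SOX2, was at 261, 254 and 238 CPM under the LIN28A knockout label, 270.0, 279 and 197 CPM under the LIN28B knockout label and 309.7, 313 and 288 CPM in control. Replicate 3 of the LIN28B knockout label was the lowest library for SOX3, and the pooled log2 fold changes were 0.49 ± 0.20 and −0.28 ± 0.11 (edgeR adjusted p = 0.663 and 0.644). The neural and ectoderm list had 15 of 22 tested members below control, a median log2 fold change of −0.34, and SOX2, SOX3 and ZIC1 below control in all 6 knockout libraries (3 of 22, beside 2.22% of all genes). Its median per library was −0.44, −0.41 and −0.28 in LIN28A knockout, −0.05, −0.11 and −0.38 under the LIN28B knockout label and −0.01, −0.09 and 0.11 in control. The list's pooled median was −0.18 without control replicate 3, −0.19 without control replicate 1 and −0.204 without LIN28B knockout replicate 3.

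Known or predicted let-7 targets lay about evenly around control. Of 47 tested members, of 50 listed, 21 were above and 26 below control. The median log2 fold change was −0.01 in the pooled comparison, −0.13 in LIN28A knockout and −0.0035 under the LIN28B knockout label. DESeq2 called 0 members, and 1 higher and 2 lower with the replicate block (1.04% and 0.924% of all genes). EdgeR called 0, and 4 were higher and 3 lower at an unadjusted edgeR p under 0.05 (8.51% and 6.38%, beside 3.46% and 3.76% of all genes). The 3 without overlap (beside 1.76% of all genes) were all above control. CPEB1, a regulator of polyadenylation and translation, was at 215, 212 and 229.6 CPM in the LIN28A knockout libraries, 184, 188 and 184 CPM in those labelled LIN28B knockout and 168, 172 and 147 CPM in control. CDK6, a kinase of the G1 phase, was at 60.2, 59.9 and 51.5 CPM under the LIN28A knockout label, 52.4, 51.4 and 61.7 CPM under the LIN28B knockout label and 49.0, 44.2 and 39.7 CPM in control. ZNF512B, a zinc finger protein, was at 59.4, 57.2 and 60.7 CPM in the LIN28A knockout libraries, 59.8, 66.2 and 53.6 CPM in those labelled LIN28B knockout and 50.9, 48.3 and 46.7 CPM in control. Their pooled log2 fold changes were 0.31 ± 0.08, 0.34 ± 0.12 and 0.29 ± 0.10 (edgeR adjusted p = 0.507, 0.602 and 0.602). Genes of microRNA processing had 4 of 15 tested members above control, a median of −0.04 and 0 members without overlap (beside 3.98% of all genes). DIS3L2, the exonuclease that degrades let-7 precursors tailed through LIN28, was at 46.1, 43.5 and 55.3 CPM under the LIN28A knockout label, 40.3, 45.0 and 62.0 CPM under the LIN28B knockout label and 60.5, 60.2 and 66.5 CPM in control. Replicate 3 of the LIN28B knockout label lay within the control range, and its pooled log2 fold change was −0.36 ± 0.14 (edgeR adjusted p = 0.644). MicroRNAs were not analysed here.

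Genes of the respiratory chain and ATP synthase lay below control in small steps. Of 61 tested oxidative phosphorylation genes, of 83 listed, 58 stood lower than control. The median log2 fold change was −0.16 in the pooled comparison, −0.23 in LIN28A knockout and −0.07 under the LIN28B knockout label. The list median per library was −0.21, −0.29 and −0.17 in LIN28A knockout, −0.04, −0.06 and −0.12 under the LIN28B knockout label and 0.02, 0.03 and −0.06 in control, so the LIN28A knockout libraries lay below all others and replicates 1 and 2 of the LIN28B knockout label reached the level of control replicate 3. All 6 knockout libraries were below control for 8 of the 61 genes, 13.1% beside 2.22% of all genes. DESeq2 called 2 of them (beside 0.284% of all genes lower), ATP5F1AW and ATP5H. As said above, reads of ATP5F1AW may have been mixed with those of its Z-linked copy. ATP5H (ENSGALG00000007926), a subunit of the peripheral stalk of ATP synthase, was at 72.2, 71.9 and 83.7 CPM in the LIN28A knockout libraries, 73.7, 70.9 and 82.3 CPM in those labelled LIN28B knockout and 97.6, 99.5 and 105 CPM in control. Replicate 3 was the highest of each group, both labels had like values, and the pooled log2 fold change was −0.41 ± 0.09 (edgeR adjusted p = 0.443, DESeq2 adjusted p = 0.0184). The others were COX6A1 and the complex I genes NDUFA2, NDUFS7, NDUFB6, NDUFV3 and NDUFA8, at −0.19 ± 0.08, −0.40 ± 0.15, −0.22 ± 0.09, −0.25 ± 0.11, −0.24 ± 0.12 and −0.16 ± 0.08 (edgeR adjusted p = 0.630 to 0.744). Ribosomal protein genes had 47 of 65 tested members below control, a median of −0.03 and 0 without overlap (beside 3.98% of all genes).

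Cell cycle genes lay below control as well. In the G2 and mitosis list 33 of 34 tested genes stood lower than control, and the median log2 fold change was −0.26. The list median per library was −0.21, −0.24 and −0.06 in LIN28A knockout, −0.58, −0.65 and 0.07 under the LIN28B knockout label and −0.09, −0.10 and 0.17 in control. Replicate 3 was the highest of every group, and replicate 3 of the LIN28B knockout label was above control replicates 1 and 2, so the groups overlapped. CDC20, BIRC5, PLK1 and ESPL1 were below control in all 6 knockout libraries (4 of 34, 11.8% beside 2.22% of all genes). PLK1, a kinase of mitotic entry, was at 212, 215 and 241 CPM under the LIN28A knockout label, 175, 163 and 268 CPM under the LIN28B knockout label and 270.2, 274 and 332 CPM in control. CDC20, an activator of the anaphase-promoting complex, was at 146, 140.3 and 123 CPM in the LIN28A knockout libraries, 110.1, 97.8 and 156 CPM in those labelled LIN28B knockout and 169, 177 and 205 CPM in control. The lowest values of both were replicates 1 and 2 of the LIN28B knockout label, and the pooled log2 fold changes were −0.46 ± 0.15 and −0.51 ± 0.15 (edgeR adjusted p = 0.599 and 0.514). DNA replication genes had 33 of 38 tested members below control, a median of −0.13 and 2 without overlap, MCM5 and CDC6 (5.26% beside 3.98% of all genes). The list median per library was −0.16, −0.17 and −0.14 in LIN28A knockout, −0.15, −0.22 and 0.05 under the LIN28B knockout label and −0.05, −0.03 and 0.08 in control. Replicate 3 of the LIN28B knockout label lay above control replicates 1 and 2, so these groups overlapped too. MCM5, part of the replicative helicase, was at 189, 186 and 222 CPM under the LIN28A knockout label, 208, 192 and 236 CPM under the LIN28B knockout label and 257, 254 and 262 CPM in control. Its pooled log2 fold change was −0.33 ± 0.10 (edgeR adjusted p = 0.514). DESeq2 called 0 members of either cell cycle list, and with the replicate block 3 lower in the G2 and mitosis list and 2 lower in the DNA replication list (beside 0.924% of all genes).

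**Figure D5:**
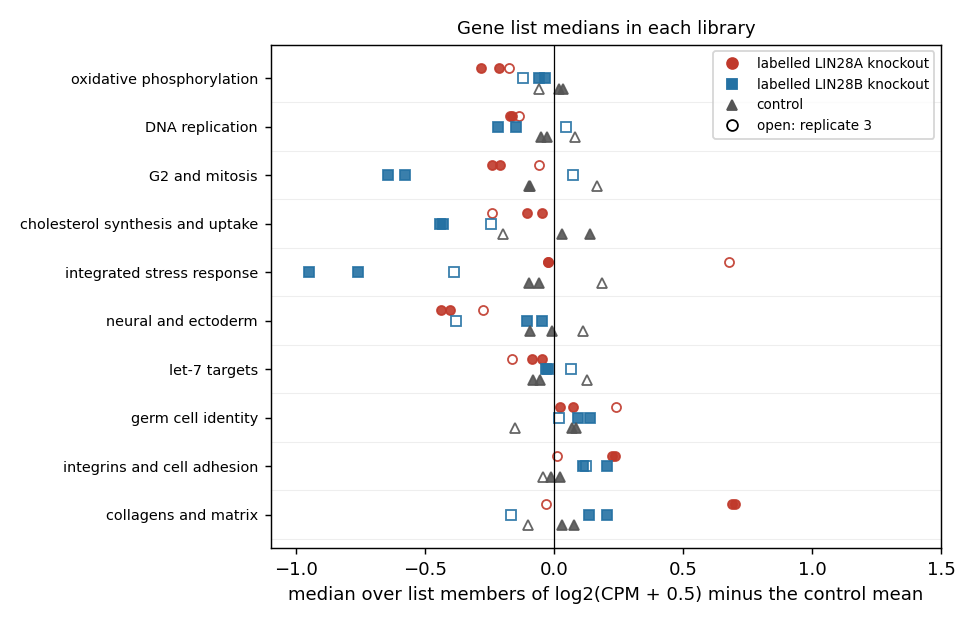
Median over the tested members of 10 gene lists of log2(CPM + 0.5) minus the control mean (horizontal axis), for each library. Circles are libraries labelled LIN28A knockout, squares those labelled LIN28B knockout, triangles control, and open symbols replicate 3. Oxidative phosphorylation medians are lowest in LIN28A knockout, integrated stress response medians are lowest under the LIN28B knockout label, and the collagen and matrix medians of 0.70 and 0.69 belong to LIN28A knockout replicates 1 and 2.

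Cholesterol synthesis and uptake genes stood lower than control in 22 of 24 tested cases. The median log2 fold change was −0.23 in the pooled comparison, −0.15 in LIN28A knockout and −0.36 under the LIN28B knockout label. At an unadjusted edgeR p under 0.05, 8 were lower and 0 higher (33.3% and 0% of the list, beside 3.76% and 3.46% of all genes), and 3 (12.5% beside 2.22% of all genes) were below control in all 6 knockout libraries: STARD4, FDPS and HMGCS1. FDPS, which makes farnesyl diphosphate, was at 66.3, 61.6 and 53.6 CPM in the LIN28A knockout libraries, 43.4, 35.1 and 62.2 CPM in those labelled LIN28B knockout and 93.4, 98.5 and 67.5 CPM in control. HMGCS1, an early enzyme of the mevalonate pathway, was at 178, 189 and 179.9 CPM under the LIN28A knockout label, 143, 142 and 196 CPM under the LIN28B knockout label and 207, 218 and 202 CPM in control. Control replicate 3 was the lowest control library for both, and the pooled log2 fold changes were −0.70 ± 0.18 and −0.29 ± 0.11 (edgeR adjusted p = 0.507 and 0.636). The list median per library overlapped, at −0.05, −0.11 and −0.24 in LIN28A knockout, −0.44, −0.43 and −0.24 under the LIN28B knockout label and 0.03, 0.14 and −0.20 in control.

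The integrated stress response, the ATF4 programme of amino acid shortage and other stresses, had medians on opposite sides of control under the 2 labels. Its 29 tested members had 26 below control in the pooled comparison and a median of −0.20, but the median was 0.23 in LIN28A knockout and −0.70 under the LIN28B knockout label. Per library the median was −0.02, −0.02 and 0.68 in LIN28A knockout, −0.76, −0.95 and −0.39 under the LIN28B knockout label and −0.10, −0.06 and 0.19 in control. In LIN28A knockout only replicate 3 was above all control libraries. The pooled median was −0.34 without that library and −0.34 without LIN28B knockout replicate 3. DESeq2 called 0 members, and 1 higher and 5 lower with the replicate block (beside 1.04% and 0.924% of all genes). ATF4 itself was at 524, 526 and 614 CPM in the LIN28A knockout libraries, 308, 297 and 455 CPM in those labelled LIN28B knockout and 515, 512 and 541 CPM in control. All 3 libraries labelled LIN28B knockout were below the others, and the LIN28A knockout libraries overlapped control. The difference between the labels was 0.65 ± 0.16 (edgeR adjusted p = 0.0958, and 0.0244 with the replicate block). SLC7A3, a transporter of cationic amino acids, was one of 2 members below control in all 6 knockout libraries (6.90% beside 2.22% of all genes), at 240.0, 235 and 202 CPM under the LIN28A knockout label, 223, 205 and 269 CPM under the LIN28B knockout label and 271, 289 and 271 CPM in control. The other was EIF4EBP1, an inhibitor of translation initiation, and their pooled log2 fold changes were −0.28 ± 0.10 and −0.18 ± 0.08 (edgeR adjusted p = 0.630 and 0.690). Glycolysis and hypoxia genes likewise had medians of 0.04 in LIN28A knockout and −0.23 under the LIN28B knockout label.

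Collagen and matrix genes stood higher than control in 38 of 52 tested cases. The median log2 fold change was 0.29 in the pooled comparison, 0.62 in LIN28A knockout and 0.11 under the LIN28B knockout label. DESeq2 called 3 higher, TNC, TGFBI and COL14A1 (beside 0.368% of all genes), and 6 higher and 1 lower with the replicate block (beside 1.04% and 0.924%). EdgeR called 0 on all libraries, and 13 higher and 1 lower without LIN28A knockout replicate 3 (beside 0.879% and 0.594% of all genes). The list median was 0.70, 0.69 and −0.03 in LIN28A knockout, 0.14, 0.21 and −0.17 under the LIN28B knockout label and 0.08, 0.03 and −0.10 in control, so the shift was held mainly by LIN28A knockout replicates 1 and 2. With TNC, the members without overlap were LAMB1 and FBLN1 (3 of 52, 5.77% beside 3.98% of all genes). LAMB1, a laminin chain of basement membranes, was at 737, 736 and 609 CPM in the LIN28A knockout libraries, 650.2, 681 and 607 CPM in those labelled LIN28B knockout and 570.4, 566 and 577 CPM in control. FBLN1, the matrix protein fibulin-1, stood on the other side, at 49.8, 52.1 and 86.1 CPM under the LIN28A knockout label, 67.0, 74.1 and 74.3 CPM under the LIN28B knockout label and 99.1, 97.3 and 102 CPM in control. LAMB1 was highest in LIN28A knockout replicates 1 and 2, and FBLN1 was lowest in the same libraries. Their pooled log2 fold changes were 0.23 ± 0.09 and −0.57 ± 0.16 (edgeR adjusted p = 0.636 and 0.514). Fibroblast markers, which share members with the matrix list, had 10 of 20 tested members above control. Their summed level was 977 to 2269 CPM in LIN28A knockout, 1465 to 2416 CPM under the LIN28B knockout label and 1668 to 2350 CPM in control. The collagen COL1A1 had 2127 to 19578 counts in LIN28A knockout, 1619 to 2767 under the LIN28B knockout label and 1328 to 3504 in control. In the same order PRRX1 had 384 to 538, 341 to 484 and 369 to 548 counts, and PDGFRA 14 to 30, 40 to 66 and 22 to 42. TWIST1 had 0 to 19, 9 to 11 and 1 to 23 counts. For all of these genes the range of these unscaled counts in LIN28A knockout overlapped that of control. For COL1A1 the highest LIN28A knockout count, 19578, was nonetheless far above the highest control count, 3504. The part of other cells in the matrix shift was not tested, and in bulk RNA more cells of a type and more RNA per cell cannot be told apart.

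Guidance genes were mixed. Of 47 tested ligands and receptors 32 were above control, with a median of 0.16, and 4 had no overlap, 2 on each side (8.51% beside 3.98% of all genes). The list median per library was 0.12, 0.14 and −0.67 in LIN28A knockout, 0.39, 0.43 and 0.15 under the LIN28B knockout label and 0.10, 0.02 and −0.07 in control, with LIN28A knockout replicate 3 far below the rest. The pooled median was 0.0499, 0.077 and 0.27 without LIN28A knockout replicate 1, 2 and 3. PLXNA2 and SEMA4D were above control, and ROBO2 and SEMA3A below. ROBO2, a receptor of SLIT ligands, was at 20.3, 17.98 and 20.7 CPM in the LIN28A knockout libraries, 24.95, 28.3 and 30.3 CPM in those labelled LIN28B knockout and 30.7, 33.6 and 38.7 CPM in control. SEMA3A, a secreted semaphorin, was at 57.5, 67.4 and 82.1 CPM under the LIN28A knockout label, 91.7, 92.7 and 84.1 CPM under the LIN28B knockout label and 108, 100.1 and 137 CPM in control. For both genes the LIN28A knockout label held the lowest values and control replicate 3 the highest. Their pooled log2 fold changes were −0.55 ± 0.12 and −0.55 ± 0.13 (edgeR adjusted p = 0.410 and 0.507; DESeq2 adjusted p = 0.0101 and 0.0586). FGF and ERK feedback genes had 16 of 23 tested members above control and a median of 0.24. Per library the median was 0.32, 0.10 and −0.42 in LIN28A knockout, 0.24, 0.37 and −0.08 under the LIN28B knockout label and 0.01, −0.03 and 0.03 in control, again lowest in LIN28A knockout replicate 3. The pooled median was 0.11 and 0.12 without LIN28A knockout replicate 1 and 2, 0.14 without LIN28B knockout replicate 2, and 0.16 and 0.14 without control replicate 1 and 2. FGF8, a growth factor of this family, was at 14.7, 16.5 and 1.52 CPM in the LIN28A knockout libraries, 4.77, 4.22 and 7.38 CPM in those labelled LIN28B knockout and 1.43, 1.52 and 0.821 CPM in control. LIN28A knockout replicate 3 lay within the control range, the other 5 knockout libraries were above it, and the pooled log2 fold change was 2.61 ± 0.67 (edgeR adjusted p = 0.507, and 0.00545 without LIN28A knockout replicate 3; DESeq2 adjusted p = 0.00232).

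In the remaining lists the members on 1 side of control in all 6 knockout libraries numbered 0 to 2, beside 3.98% of all genes. WNT signalling, meiosis, and the erythroid, leukocyte and endothelial marker lists had 0. P53 targets and apoptosis had 1 of 36 (2.78%), insulin, IGF and mTOR 1 of 30 (3.33%), integrins and cell adhesion 1 of 30 (3.33%) and mesoderm and endoderm 1 of 24 (4.17%). DNA methylation had 1 of 11 (9.09%) and interferon response 2 of 18 (11.1%), larger shares than that of all genes, from 1 and 2 genes. E-cadherin gene CDH1, a marker of PGCs and epithelia, was at 75.4, 75.0 and 63.3 CPM under the LIN28A knockout label, 101, 107 and 46.4 CPM under the LIN28B knockout label and 49.3, 48.1 and 28.4 CPM in control. Replicate 3 was the lowest of every group for CDH1, and replicate 3 under the LIN28B knockout label lay below control replicates 1 and 2, at a pooled log2 fold change of 0.89 ± 0.27 (edgeR adjusted p = 0.533; DESeq2 adjusted p = 0.0943, and 8.39e-05 with the replicate block). Of 19 listed W-linked genes 2 were tested, and both were below control. The list median was −0.62 in the pooled comparison, −1.05 in LIN28A knockout and −0.18 under the LIN28B knockout label. ATP5F1AW, which may share reads with its Z-linked copy, was 1 of them, and the knockout libraries of the other overlapped control. Endothelial markers summed to 19.4 to 72.5 CPM in LIN28A knockout, 70.4 to 94.2 CPM under the LIN28B knockout label and 27.4 to 58.6 CPM in control. Of the defining endothelial genes, CDH5 had 0 counts in LIN28A knockout, 0 to 36 under the LIN28B knockout label and 2 to 10 in control. In the same order PECAM1 had 133 to 918, 926 to 1082 and 402 to 914 counts, and VWF 4 to 10, 9 to 19 and 4 to 9. For PECAM1 every library labelled LIN28B knockout had more counts than any control library.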

How the data were processed

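RNA was sequenced from 9 libraries of chicken PGCs. Per the labels' protocols, poly(A) RNA was used with a directional library kit. The deposited values are raw counts per Ensembl gene, 1 table per library, made by the authors. Per the submitters' processing notes, the tools were edgeR 3.38.4, DESeq2 1.36.0, featureCounts 2.0.3 and HISAT2 2.1.0, and the builds galGal6 and GRCg6a. For the annotation release and the strand setting the labels give nothing, and overlapping genes or near-identical copies may share or lose reads. Symbols came from the authors' deposited tables of each knockout against control, whose log2 fold changes and adjusted p-values are, per the file headers, the authors' own and were used for no result. Of 24356 genes, 3859 had 0 counts in every library, and of the 15475 tested genes 12334 had a symbol. In their descriptions, libraries of the LIN28B knockout label cite the LIN28A knockout table. No sequences or coordinates are given.

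Tests of the counts used edgeR 4.0.16 under R 4.3.3 (filterByExpr, TMM, quasi-likelihood model of group over all 9 libraries, common biological coefficient of variation 0.265). The contrast was the mean of both knockouts minus control, with Benjamini-Hochberg adjustment over all tested genes and a threshold of 0.05. SE was taken from the F statistic. DESeq2 1.42.0 was an alternative; its fit with the replicate block, and all alternatives for the difference between the labels, were chosen after seeing the data. The code was run on simulated counts of independent libraries with a smaller spread than these data, which does not show how the tests perform here. Replicates 1 and 2 of each group differed beyond counting noise, at a chi-square of 4.94 to 6.22 per degree of freedom, and were kept as separate libraries. This does not show that they were separate cultures. Named genes were LIN28A, LIN28B, the 12 higher and 12 lower genes described, up to 3 called members of each of 29 lists or otherwise the member of lowest p, and a set of germ cell, cell cycle and stress genes, of which POU5F3 is not among the tested symbols. Other genes without overlap in a list were added after their values were seen. The members and lists were chosen with earlier results of these data known.

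Whether replicate numbers pair the libraries was checked over genes whose average log2 CPM reached 3, by correlating deviations from group means. Same-numbered libraries gave 0.403, 0.258 and 0.391 between LIN28A knockout and control and 0.394, 0.427 and 0.555 between the LIN28B knockout label and control, all above 0.1, so they were taken to pair in the comparison with control, although this check does not separate replicate 1 from replicate 2. Between LIN28A knockout and the LIN28B knockout label they gave 0.130, 0.0873 and 0.124, 1 of them under 0.1. By this cut the numbers were not taken to pair these labels. Numbers that pair both labels with control would also pair the labels with each other, so the check does not settle this. The main fit held no replicate block, so printed SE and edgeR p-values leave the pairing with control out unless the block is named. With the block the pooled SE was smaller for some genes (CXCR4, 0.10 against 0.25) and larger for others (TNC, 0.39 against 0.34).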

Additional observations from a re-analysis of the deposited data

Results flagged for a closer look

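The log2 fold changes over control of 4 named genes differed between the knockout labels by the test of LIN28A knockout minus the LIN28B knockout label, adjusted over all tested genes with edgeR. ATP5F1AW had a difference of −0.84 ± 0.10 (SE; edgeR adjusted p = 0.0152), at 40.2 ± 0.260 CPM in LIN28A knockout, 71.7 ± 6.15 CPM under the LIN28B knockout label and 87.9 ± 1.503 CPM in control (mean ± SD, n = 3 each). ICA1 had a difference of 0.67 ± 0.11 (edgeR adjusted p = 0.0399), at 77.7 ± 6.78 CPM in LIN28A knockout, 48.7 ± 3.11 CPM under the LIN28B knockout label and 43.0 ± 0.0769 CPM in control. PFKFB3 had a difference of 1.20 ± 0.11 (edgeR adjusted p = 0.00706), at 53.1 ± 2.601 CPM in LIN28A knockout, 23.2 ± 0.859 CPM under the LIN28B knockout label and 49.0 ± 3.11 CPM in control. CDKN1A had a difference of 2.56 ± 0.38 (edgeR adjusted p = 0.0286), at 11.1 ± 0.597 CPM in LIN28A knockout, 1.88 ± 0.350 CPM under the LIN28B knockout label and 2.75 ± 1.53 CPM in control. ATP5F1AW and ICA1 lay on 1 side of control under both labels, and PFKFB3 and CDKN1A did not. With replicate 1 or replicate 2 of the LIN28B knockout label left out, edgeR called 0 differences between the labels among all tested genes, these 4 included. With the replicate block 10 of the 57 named genes passed, these 4 among them, beside 890 of all 15475 genes.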

How the results depend on the processing

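The pooled comparison gave 0 calls by edgeR with other size factors, no filter on low counts, a stricter filter, the replicate block (0 called, as without it) and the 6 knockout libraries as 1 group. DESeq2 called 101, of which 81 had no overlap and the same sign. Calls on the mean of both labels favour such genes, here and in the fits below. With replicates 1 and 2 only there were 4263 calls, 2988 of them with the same sign and no overlap, and 4495 genes without overlap. That fit rests on the small spread between replicates 1 and 2. Leaving out single libraries gave 0 to 233 calls, 0 to 195 with the same sign and no overlap, and 695 to 1855 genes without overlap. The cause was not tested beyond the fewer libraries of each setting. The replicate block changed no edgeR call of the pooled comparison, and with it DESeq2 called 304. The 80 genes that differed between the labels became 890 with the replicate block, all 80 among them, although replicate 2 of the LIN28B knockout label correlated best with LIN28A knockout replicate 1. They became 136 with no filter on low counts, 1018 by DESeq2, 6196 with replicates 1 and 2 only and 0 to 474 when single libraries were left out. Of 57 named genes, 50 were called in the stated direction with replicates 1 and 2 only, beside 27.2% of all genes called in that fit. Many of the 57 were chosen by low p in these same libraries, so this count is described, not tested. SALL4 reversed to 0.16 with replicates 1 and 2 only (edgeR adjusted p = 0.00189) and ranged from −0.14 to 0.064 when single libraries were left out. PIWIL1 reversed to −0.010 with replicates 1 and 2 only and ranged from −0.098 to 0.089. When single libraries were left out, the oxidative phosphorylation median stayed below 0 (−0.18 to −0.13). So did those of G2 and mitosis (−0.37 to −0.19) and cholesterol (−0.30 to −0.16). That of collagens and matrix stayed above 0 (0.23 to 0.39), and that of let-7 targets ranged from −0.08 to 0.06. Replicates 1 and 2 of a group were alike, so leaving out 1 of them kept a shift that both held. Such a shift was that of collagens and matrix in LIN28A knockout (0.70 and 0.69). Another was that of G2 and mitosis under the LIN28B knockout label (−0.58 and −0.65). These stable signs are described, not tested. With 3 libraries a group, even LHPP at a pooled log2 fold change of 2.38 did not pass (edgeR adjusted p = 0.119). At this depth and spread, differences that did not pass are not shown to be absent.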
